A study of Arabidopsis thaliana with 8 samples.

Results

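The 4 genes described here are AT4G15770, described as a homologue of a ribosome assembly factor, AT1G52930, which encodes a Brix domain protein, AT1G18850, to which no function is assigned here, and AT5G55140, of the ribosomal L30 family. They were picked by locus from genes that were higher on lincomycin in these arrays. Each was measured by exactly 1 probe set annotated to that gene alone (245512_at, 260157_at, 261377_at and 248102_at in that order), so 4 of the 22746 probe sets tested, and 4 of the 13513 with exactly 1 listed gene, are the subject. The L30 family is a family of ribosomal proteins, so AT5G55140 is by its annotation a part of a ribosome and not an assembly factor.

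Transcripts were measured in whole Arabidopsis thaliana seedlings, wild type of the ecotype Col-0, grown for 4 days in darkness at 21 °C on medium with 1% sucrose. Plates without the antibiotic gave the groups called dark and red, and plates with it gave those called dark lincomycin and red lincomycin. Seedlings of either red group were collected after 30 min of red light, the others straight from darkness. Each group had 2 Affymetrix arrays, 8 in all. Its concentration is not settled, since the protocol states 220 µg/ml and the source name 200 µg/ml. Nothing in the labels says that the 2 arrays of a group came from separate cultures, so errors and p-values here cover array-to-array spread that may be technical.

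Lincomycin is an antibiotic that blocks protein synthesis on bacterial-type ribosomes, and in plants it acts on the plastid ribosome. Cytosolic ribosomes are built in the nucleolus: RNA polymerase I makes a long precursor RNA, small nucleolar RNA-protein particles modify it, and many assembly factors cut, fold and export the precursors of the small (40S) and large (60S) subunits. In yeast, proteins with a Brix domain act in this nucleolar assembly. A growing seedling needs many new ribosomes, and plants carry further ribosomes of the bacterial type in plastids and mitochondria.

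The arrays were not of equal quality. On replicate 1 of the dark group the actin control probe sets gave a 3' to 5' signal ratio of 41.2, a measure that rises as RNA degrades, whereas the remaining 7 arrays had ratios between 2.24 and 3.67. Replicate arrays differed more in the groups without lincomycin: the standard deviation of the replicate difference over all probe sets was 0.538 (log2) for dark and 0.442 for red seedlings, against 0.211 and 0.224 for their lincomycin counterparts. Of the root markers, 1 of 7 had a named probe set, EXPA7, an expansin of root hair cells, and its intensity lay between 21.1 and 60.1. None of the 4 shoot markers or the 7 markers of dividing cells had one, so the share of shoot or dividing cells could not be followed. In RNA of whole seedlings, more cells of a type and more RNA per cell cannot be told apart.

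AT4G15770 had the highest change of the 4 genes on lincomycin in darkness. Its intensity was 116.5 and 136.6 on the dark arrays, 182.6 and 294.2 on the red arrays, 523.8 and 495.6 on the dark lincomycin arrays, and 576.7 and 705.7 on the red lincomycin arrays. On the log2 scale the widest pair of replicates was that of the red group. Lincomycin went with a level 4.04-fold higher in darkness (log2 change 2.01 ± 0.24, SE of the limma fit, 2 arrays in each group) and 2.75-fold higher after red light (1.46 ± 0.24). These values chose the gene and are given without a test.

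AT1G52930, the Brix domain gene, had a narrower range. Its intensity was 42.1 and 47.9 on the dark arrays, 40.1 and 40.8 on the red arrays, 74.2 and 75.1 on the dark lincomycin arrays, and 103.6 and 90.3 on the red lincomycin arrays. Every lincomycin array was above every other array. The dark and red groups lay close together, and the red lincomycin arrays were the highest. The log2 change on lincomycin was 0.73 ± 0.14 in darkness and 1.26 ± 0.14 after red light (1.66-fold and 2.39-fold). It was the 1 gene of the 4 with the larger estimate after red light, by 0.52 ± 0.20 in log2, a difference that is a description because both of its parts were used in the choice of genes.

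AT1G18850 was at 40.5 and 35.6 on the dark arrays and 41.6 and 37.9 on the red arrays, 2 groups that overlapped. It stood at 104.5 and 99.9 on the dark lincomycin arrays and at 83.3 and 78.1 on the red lincomycin arrays. Its highest group was therefore the dark lincomycin group, whereas the other 3 genes were highest in the red lincomycin group. The log2 change on lincomycin was 1.43 ± 0.14 in darkness (2.69-fold) and 1.02 ± 0.14 after red light (2.03-fold).

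AT5G55140, the L30 family gene, was at 68.4 and 87.9 on the dark arrays, 104.5 and 119.4 on the red arrays, 198.7 and 218.5 on the dark lincomycin arrays, and 253.3 and 266.8 on the red lincomycin arrays. As for AT4G15770, the group means stood in the order dark, red, dark lincomycin and red lincomycin. The log2 change on lincomycin was 1.43 ± 0.17 in darkness (2.69-fold) and 1.22 ± 0.17 after red light (2.33-fold).

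**Figure D1:**
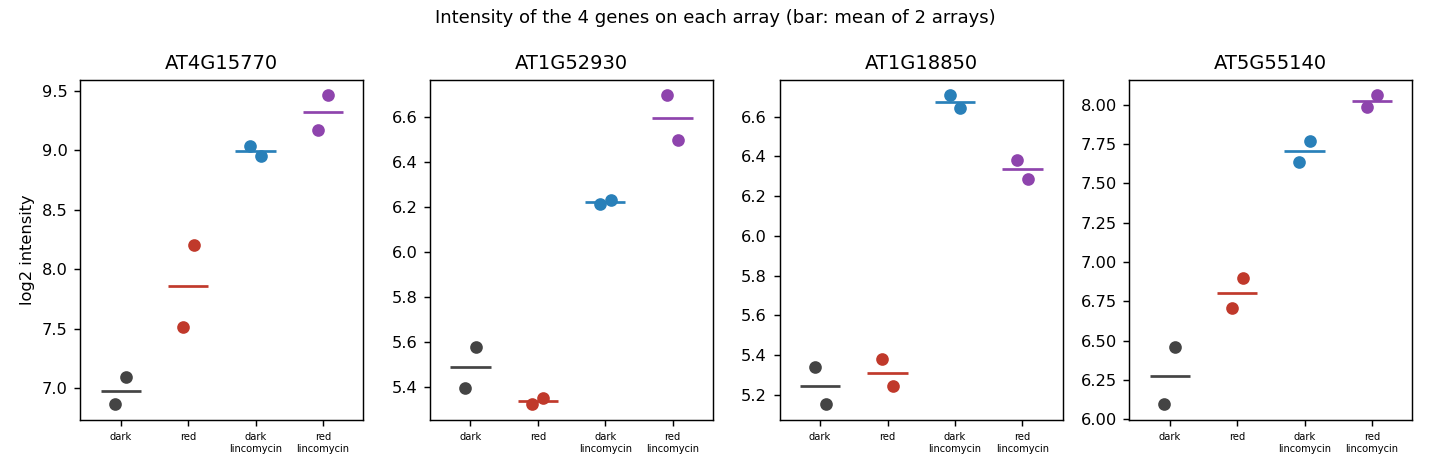
Log2 intensity (vertical axis, a separate scale for each gene) of the 4 genes on each array, with 2 points per group and a bar at their mean. Every lincomycin array lies above every array without lincomycin for all 4 genes, and AT1G18850 alone has its highest group in the dark lincomycin group.

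All 4 genes thus had their 4 lincomycin arrays above their 4 other arrays, which the choice of genes favours and 4.35% of all probe sets also showed. With dark replicate 1 (actin ratio 41.2) left out, the log2 changes in darkness were 1.90 for AT4G15770, 0.64 for AT1G52930, 1.52 for AT1G18850 and 1.24 for AT5G55140. Across the 8 arrays the genes correlated with each other at Pearson's r between 0.864 (AT4G15770 and AT1G18850) and 0.985 (AT4G15770 and AT5G55140), values that share the contrast by which the genes were chosen.

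The red light contrasts were not used in the choice of genes and were tested. Their arrays were also part of the lincomycin comparisons that chose the genes, so the tests are not independent of the choice. None of the 4 genes passed at an adjusted p under 0.05 by limma in seedlings without lincomycin, where 0.189% of all probe sets were called. AT4G15770 was at 0.88 ± 0.24 (log2, 95% interval 0.31 to 1.44, adjusted p = 0.182, limma) and AT5G55140 at 0.53 ± 0.17 (0.13 to 0.92, adjusted p = 0.228, limma). For each of them the red arrays lay above both dark arrays, as for 16.9% of all probe sets, and the unadjusted p was under 0.05, as for 14.3%. AT1G52930 was at -0.15 ± 0.14 (-0.48 to 0.18, adjusted p = 0.688, limma) and AT1G18850 at 0.06 ± 0.14 (-0.26 to 0.39, adjusted p = 0.881, limma). For AT1G52930 the red arrays lay below both dark arrays, as for 18.2% of all probe sets. Without replicate 2 of the dark group the estimate of AT1G18850 turned to -0.029, and without replicate 1 of the red group to -0.0040. When replicate 1 of the dark group and replicate 1 of the red group were both left out, a fit added after seeing the data, the estimate of AT4G15770 was 1.11. That fit takes its spread from the lincomycin groups alone, whose replicates differed less. Without red replicate 2 alone the estimate of AT4G15770 was 0.53 (adjusted p = 0.239, limma), and without red replicate 1 alone 1.22 (adjusted p = 0.157). That of AT5G55140 was 0.35 without dark replicate 1 (adjusted p = 0.335, limma).

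On lincomycin the estimates for red light were 0.32 ± 0.24 for AT4G15770 (95% interval -0.24 to 0.89) and 0.32 ± 0.17 for AT5G55140 (-0.07 to 0.71). AT1G52930 was at 0.37 ± 0.14 (0.04 to 0.71) and AT1G18850 at -0.34 ± 0.14 (-0.67 to -0.01). The adjusted p of all 4 rounded to 1.00 in limma, where 0.0615% of all probe sets were called. AT1G52930 and AT1G18850 had an unadjusted p under 0.05, as 3.85% of all probe sets did, and their estimates had opposite signs. The red lincomycin arrays lay above both dark lincomycin arrays for AT4G15770, AT1G52930 and AT5G55140, as for 21.7% of all probe sets. For AT1G18850 they lay below both, as for 22.9%. The interval of AT4G15770 reaches 0.89, so a missing call does not show that red light had no effect.

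**Figure D2:**
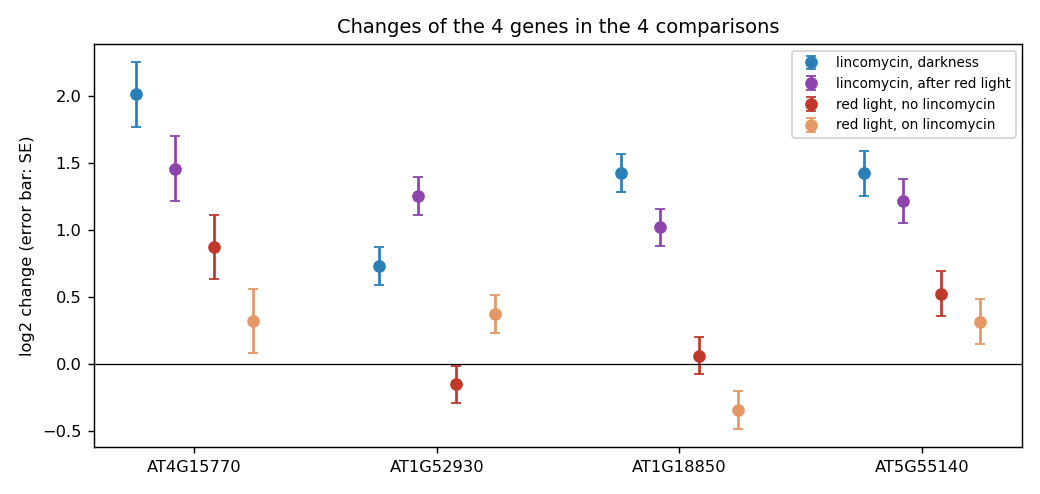
Log2 change (vertical axis) of each gene in the 4 comparisons, with error bars of 1 SE from the limma fit and 2 arrays in each group. The lincomycin estimates lie between 0.73 and 2.01, and the red light estimates between -0.34 and 0.88.

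To set the genes in their pathway, 75 further genes of cytosolic ribosome biogenesis were listed from general knowledge of gene function, not from the supplied annotation. Earlier results of these data were known when the list was made, so its counts and shares are a description. Of the 75 genes, 40 had a probe set with exactly 1 listed gene. No gene of this list was called by limma in the red light comparison on either medium. At an unadjusted p under 0.05, 1 was higher and 4 were lower without lincomycin, where 14.3% of all probe sets passed in either direction, and 4 were higher and 0 lower with it, where 3.85% passed. On lincomycin in darkness 2 of the 40 rose and 0 fell by limma at an adjusted p under 0.05 (11 higher and 1 lower at an unadjusted p under 0.05), where 0.448% of all probe sets rose and 0.532% fell (7.6% and 10.5% unadjusted). After red light 0 of 40 passed on lincomycin by limma, with 21 higher and 0 lower at an unadjusted p under 0.05, where 4.49% of all probe sets were higher and 3.84% lower at that level. In all, 1 probe set was called higher in that comparison (0.0044%) and 5 lower (0.022%).

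The estimates of the 40 genes lay mostly above 0. In darkness 30 were above 0 on lincomycin (75%, against 48.1% of all probe sets), with a median log2 change of 0.29 against -0.01 over all probe sets. Without dark replicate 1 the number was 28 of 40 and the median 0.18. After red light 38 were above 0 (95%, against 48.2% of all probe sets), with a median of 0.36 against -0.01. In 19 of the 40 genes (47.5%) all 4 lincomycin arrays were above all 4 others, against 4.35% of all probe sets, and in 0 of the 40 they were all below, against 3.99%. Without replicate 1 of the dark group and replicate 1 of the red group this number was 20 of 40, against 13.8% of all probe sets. Such a count takes no account of size. Among the 19 genes the log2 change in darkness ran from 0.09 (MAK16, a 60S assembly factor) to 1.42 (PES). MAK16 was dim, with log2 intensities from 3.41 to 3.81, where the 20th percentile of all values was 3.51.

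**Figure D3:**
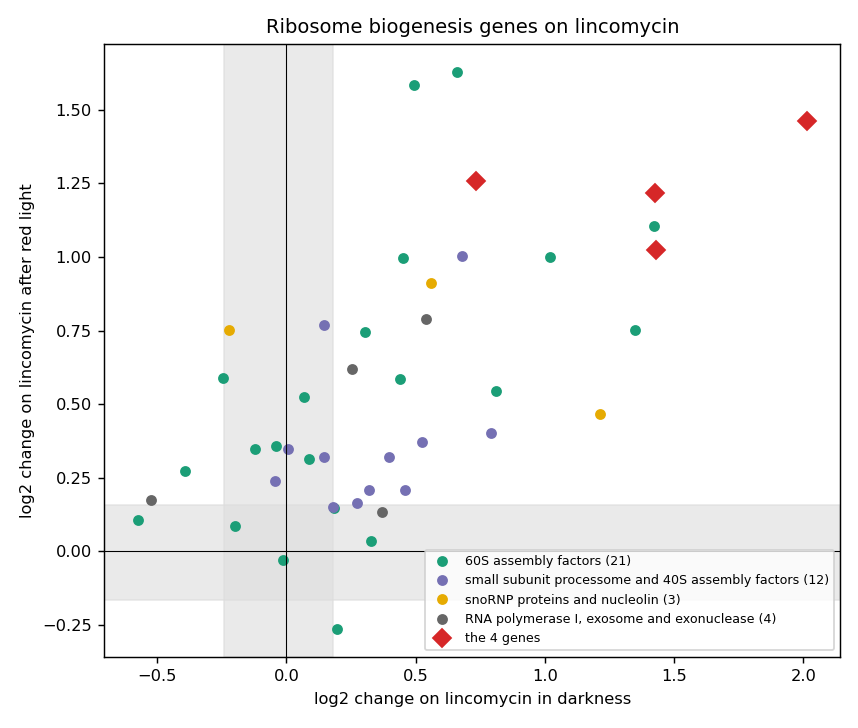
Log2 change on lincomycin in darkness (horizontal axis) and after red light (vertical axis) of 40 listed ribosome biogenesis genes, coloured by role, and of the 4 genes (diamonds). Grey bands hold the middle 50% of all probe sets. Both axes share no arrays, and 38 of the 40 points lie above 0 after red light.

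The largest role group was that of 60S assembly, with 21 measured genes of 34. Its median on lincomycin was 0.20 in darkness and 0.52 after red light. In darkness 14 of the 21 were above 0 and 7 below, against 48.1% of all probe sets above 0. After red light 19 were above 0 and 2 below, against 48.2%. At an unadjusted p under 0.05 by limma, 4 were higher and 1 lower in darkness, against 7.6% and 10.5% of all probe sets. After red light 12 were higher and 0 lower at that level, against 4.49% and 3.84%. All lincomycin arrays were above all others in 9 of the 21, against 4.35% of all probe sets. AT5G15550 of this list rose in darkness. It was at 69.1 and 66.0 on the dark arrays, 94.3 and 89.6 on the red arrays, 179.3 and 165.3 on the dark lincomycin arrays, and 155.7 and 153.7 on the red lincomycin arrays. The lincomycin arrays were its upper 4. The log2 change was 1.35 ± 0.13 in darkness (adjusted p = 0.0293, limma) and 0.75 ± 0.13 after red light (adjusted p = 0.164, limma). Dropping dark lincomycin replicate 1 or 2 ended the call (adjusted p = 0.327 and 0.266), as did dropping either red lincomycin array (adjusted p = 0.123 for each) and a fit on the 4 arrays of the comparison alone (adjusted p = 0.156).

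PES, the pescadillo homologue that acts in 60S assembly, was chosen after its values were seen because it had the highest estimate of the list in darkness, 1.42 ± 0.37 (adjusted p = 0.108, limma). Its arrays read 71.9 and 151 in dark seedlings, 117.4 and 159.1 in red light, 280.5 and 277.9 in the dark lincomycin group, and 362.4 and 238.0 in the red lincomycin group. The dark replicates lay far apart, and the lower of them came from replicate 1, whose actin ratio was high. Without that array the estimate was 0.88, below those of AT5G15550 (1.38) and AT3G03920 (1.37). NLE, the Notchless homologue of 60S maturation, also named after its values were seen, was at 1.02 ± 0.23 in darkness (adjusted p = 0.0873, limma) and 1.00 ± 0.23 after red light (adjusted p = 0.320, limma). At the other end, AT5G40530, also named after its values were seen, had the lowest estimate in darkness, -0.57 ± 0.16 (adjusted p = 0.128, limma). It stood at 0.11 ± 0.16 after red light.

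AT3G15460, taken as the paralogue of AT1G52930, was dim on every array, with an intensity between 15.1 and 22.4, and its groups overlapped in darkness. Its log2 change on lincomycin was -0.12 ± 0.18 in darkness (adjusted p = 0.796, limma) and 0.35 ± 0.18 after red light (adjusted p = 0.664, limma). The probe sequences were not analysed here, so cross-hybridisation between the pair was not tested.

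Of the factors of the small subunit 12 of 22 genes were measured. Of these, 11 were above 0 on lincomycin in darkness (median 0.30, range -0.04 to 0.79) and 12 after red light (median 0.32, range 0.15 to 1.00), and 6 had all lincomycin arrays above all others, against 4.35% of all probe sets. None passed by limma, with 4 and 5 higher at an unadjusted p under 0.05 in darkness and after red light, against 7.6% and 4.49% of all probe sets. The lowest p in darkness was that of NOB1, named for the endonuclease that makes the last cut of the small subunit RNA in yeast, at 0.79 ± 0.14 (adjusted p = 0.0554, limma). Its arrays read 97.3 and 84.7 in dark seedlings, 114.3 and 110.9 in red light, 154.5 and 159.8 in the dark lincomycin group, and 157.3 and 140.8 in the red lincomycin group. After red light the lowest p belonged to IMP4, a nucleolar protein of the small subunit processome, at 1.00 ± 0.17 (adjusted p = 0.147, limma).

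Of the proteins of small nucleolar RNA particles and nucleolin, 3 of 11 genes were measured. AT3G03920 of this list rose on lincomycin in darkness, by 1.21 ± 0.20 (2.32-fold, adjusted p = 0.0496, limma), and stood at 0.47 ± 0.20 after red light (adjusted p = 0.607, limma). Its arrays read 283.2 and 227.2 in dark seedlings, 393.6 and 283.3 in red light, 580.1 and 596.8 in the dark lincomycin group, and 496.8 and 428.4 in the red lincomycin group. The lincomycin arrays were again the upper 4. The call sits at the threshold: it was lost after quantile normalization (adjusted p = 0.0560), without the dimmest 30% of probe sets (0.0504), with values raised to the 20th percentile (0.106), with the trend and robust options of limma (0.0618), on the 4 arrays of the comparison alone (0.156), with dark lincomycin replicate 1 or 2 dropped (0.344 and 0.355), and with either red lincomycin array dropped (0.130 each). AT5G08180 had the lowest p of the list after red light, at 0.75 ± 0.20 (adjusted p = 0.377, limma), and was at -0.22 ± 0.20 in darkness.

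In the list of RNA polymerase I, the exosome and exonucleases, 4 of 8 genes were measured and none passed by limma. At an unadjusted p under 0.05, 2 were higher in each lincomycin comparison, against 7.6% (darkness) and 4.49% (after red light) of all probe sets. RRP41, a core protein of the RNA-degrading exosome, had the lowest p in both, at 0.54 ± 0.18 in darkness (adjusted p = 0.172, limma) and 0.79 ± 0.18 after red light (adjusted p = 0.300, limma). The polymerase I subunits NRPA1 and NRPA2 were at 0.37 ± 0.14 and 0.25 ± 0.20 in darkness, and at 0.13 ± 0.14 and 0.62 ± 0.20 after red light.

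**Figure D4:**
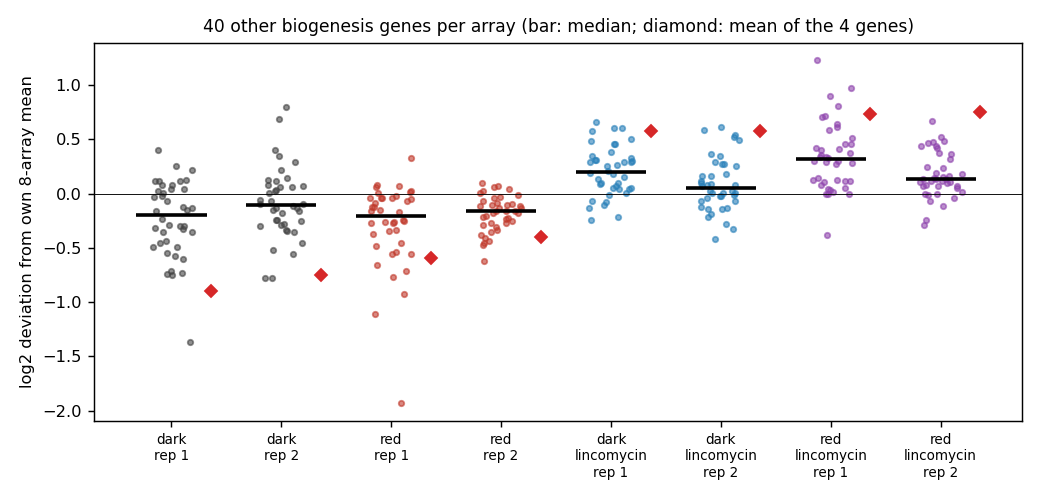
Log2 deviation of 40 listed ribosome biogenesis genes from their own 8-array mean (vertical axis) on each array, with a bar at the median and a diamond at the mean of the 4 genes. The medians lie between -0.21 and -0.11 on the 4 arrays without lincomycin and between 0.05 and 0.32 on the 4 with it.

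On single arrays the 40 genes had median deviations of -0.20 and -0.11 (dark), -0.21 and -0.16 (red), 0.20 and 0.05 (dark lincomycin), and 0.32 and 0.14 (red lincomycin). The mean of the 4 genes was -0.90 and -0.75, -0.59 and -0.40, 0.57 and 0.58, and 0.74 and 0.75 in the same order. Both sets of values put the 4 lincomycin arrays above the other 4, and the 4 genes lay further from 0 on each array. For the 4 genes, the choice of genes favours both this order and the distance from 0. The distances also set a mean of 4 genes beside a median of 40. The 2 measured reference genes of 7, AT2G28390 and AT4G34270, which are used as stable standards in plant expression work, had estimates below 0. Their log2 changes were -0.61 ± 0.16 and -0.67 ± 0.19 on lincomycin in darkness and -0.45 ± 0.16 and -0.16 ± 0.19 after red light, with adjusted p of 0.114 or above by limma. In darkness both had an unadjusted p under 0.05 by limma, where 10.5% of all probe sets were lower. For AT2G28390 all lincomycin arrays were below all others, as for 3.99% of all probe sets. In red light without lincomycin the 2 genes were at -0.37 ± 0.16 and -0.60 ± 0.19. EXPA7 was at 1.03 ± 0.25 in darkness and -0.54 ± 0.25 after red light. Whether RNA quality, the makeup of the tissue or the reference level had a part in the higher values of the ribosome genes was not tested.

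Because AT5G55140 belongs to a family of ribosomal proteins, it was set beside the nuclear genes of organelle ribosomes. Of the mitochondrial ribosomal proteins 13 of 23 listed genes were measured, and none passed on lincomycin by limma (4 and 6 higher at an unadjusted p under 0.05 in darkness and after red light, against 7.6% and 4.49% of all probe sets). In darkness 11 of the 13 were above 0 (48.1% of all probe sets), with a median of 0.34, and after red light 13 of 13 (48.2%), with a median of 0.61 and a range of 0.10 to 1.03. All lincomycin arrays were above all others in 3 of the 13 genes, against 4.35% of all probe sets. Leaving out arrays can only keep or raise such a number, for the list and for all probe sets. It was 5 without dark replicate 1 (6.76% of all probe sets) and 6 without dark replicate 2 (5.56%). Without replicate 1 of both dark and red seedlings it was 8 (13.8%). It was also 5 without dark lincomycin replicate 1 (5.35%) or red replicate 1 (6.59%). AT5G53070 had the lowest p in darkness at 0.93 ± 0.21 (adjusted p = 0.0854, limma), and AT3G06040 after red light at 1.03 ± 0.21 (adjusted p = 0.255, limma).

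Of the plastid ribosomal proteins encoded in the nucleus, 9 of 33 were measured. Their medians on lincomycin were 0.06 in darkness and 0.12 after red light. In each, 6 of 9 were above 0, against 48.1% and 48.2% of all probe sets. All lincomycin arrays were above all others in 0 of the 9, against 4.35% of all probe sets. None passed by limma. At an unadjusted p under 0.05, 1 was higher and 1 lower in darkness, against 7.6% and 10.5% of all probe sets. After red light it was 0, against 4.49% higher and 3.84% lower. AT5G47190 had the lowest p in darkness and pointed down, at -0.91 ± 0.21 (adjusted p = 0.0865, limma). After red light the lowest p was that of AT4G17560, at 0.41 ± 0.28 (adjusted p = 0.758, limma). A difference between the mitochondrial and the plastid list was not tested. The list planned for cytosolic ribosomal proteins, by annotation text, matched no gene, and these proteins were not analysed here.

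**Figure D5:**
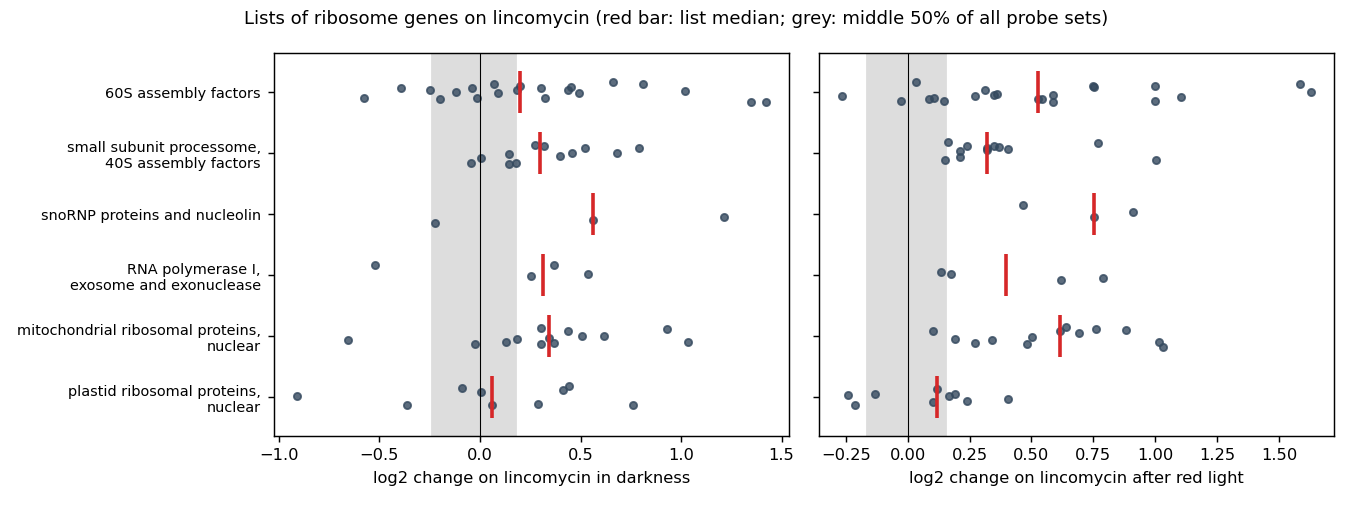
Log2 change on lincomycin in darkness (left) and after red light (right) of each measured gene of 6 lists, 1 point per gene, with the list median as a bar and the middle 50% of all probe sets in grey. The plastid list has medians of 0.06 and 0.12, the mitochondrial list 0.34 and 0.61.

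The listed genes most like the 4 genes over the 8 arrays were AT5G15550 (r = 0.965 with the mean of the 4), NLE (0.954), IMP4 (0.937), NOB1 (0.934) and PES (0.916). Of the 40 genes, 12 (30%) had r over 0.8, against 3.55% of the other probe sets. Among all other named probe sets the 5 most alike were SERPIN1, a protease inhibitor (r = 0.983), AT5G38290 (0.978), AT4G34290 (0.978), AT5G46710 (0.977) and AT3G07860 (0.974). For single genes the most alike were AT4G36000 for AT4G15770 (r = 0.989), AT5G62290 for AT1G52930 (0.997), AT1G06560 for AT1G18850 (0.991) and AT2G32070 for AT5G55140 (0.975). Likeness over 8 arrays rests mainly on the lincomycin contrast, by which the 4 genes were chosen, so these values are a description. SERPIN1, for one, was at 0.57 and 0.42 on lincomycin in darkness and after red light, and AT5G62290 was at 0.94 and 1.57, sharing with AT1G52930 the larger estimate after red light.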

How the data were processed

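Total RNA of whole seedlings was hybridised to 8 Affymetrix arrays. The deposited table holds 1 linear intensity per probe set and array, made by the authors with RMA per the submitters' processing notes (software version not given in the sources used here). Log2 was taken before any test. Of 22810 probe sets, 64 controls were left out. Genes came from the platform annotation and RefSeq gene names: 13513 probe sets had 1 gene, 503 several and 8730 none. Group means were fitted to all 8 arrays with limma 3.58.1 in R 4.3.3 (lmFit, eBayes, two-sided), adjusted by Benjamini-Hochberg over 22746 probe sets and called under 0.05; the procedure was tested on simulated data. Where a listed gene had more than 1 probe set, the one with the highest mean stood for it. The number of arrays limits the precision, and detection calls were not used here.

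The members and lists were chosen with earlier results of these data known. Listed genes were named by up to 2 calls in each direction per list and comparison, or else the lowest p. Of the biogenesis lists, PES, NLE, AT5G40530, NRPA1 and NRPA2 were named outside this rule, and AT3G15460 as a paralogue. Likeness was Pearson's r over 8 log2 values. Motif searches and sequences were not made, since no sequence was used here. Figures used Python 3.11.15, numpy 2.4.6, pandas 2.3.3 and matplotlib 3.10.9. Alternatives were median shift, quantile normalization, leaving out the dimmest 30%, raising values to the 20th percentile (log2 3.51), the trend and robust options of eBayes, a replicate number as block, 4 arrays only, and leaving out each array. Leaving out 2 arrays together, the counts of arrays that stand apart, and single listed genes without dark replicate 1 were added after seeing the data.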

Additional observations from a re-analysis of the deposited data

How the results depend on the processing

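The lincomycin estimates of the 4 genes kept their sign under every setting run, and the cause of the shifts below was not tested. Leaving out 1 array at a time gave, in darkness, 1.90 to 2.13 for AT4G15770, 0.64 to 0.82 for AT1G52930, 1.34 to 1.52 for AT1G18850 and 1.24 to 1.61 for AT5G55140, and after red light 1.12 to 1.80, 1.16 to 1.36, 0.95 to 1.09 and 1.12 to 1.32. For red light without lincomycin the same ranges were 0.53 to 1.22, -0.24 to -0.06, -0.029 to 0.16 (reversed without dark replicate 2 and, at -0.0040, red replicate 1) and 0.35 to 0.71. Without dark replicate 1 and red replicate 1 together, which leaves single arrays assumed to vary like the lincomycin groups, the values were 1.52 for AT1G18850 and 1.24 for AT5G55140 on lincomycin in darkness, 1.12 for AT4G15770 on lincomycin after red light, and 1.11 for AT4G15770 in red light without lincomycin.

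Counts of calls moved more. For red light without lincomycin the 43 calls became 96 with array medians shifted, 28 with the 20th percentile as floor, 7 with the replicate block, 0 (1549 at an unadjusted p under 0.05 by limma) on the 4 arrays alone, 949 without both replicates 1, and 0 to 1219 without 1 array. For red light on lincomycin the 14 became 0 (1129 unadjusted by limma) with the floor, 1 with the block, 150 on 4 arrays, 150 without both replicates 1, and 0 to 28. For lincomycin in darkness the 223 became 341 with medians shifted, 124 with the floor, 108 with trend and robust options, 4 with the block, 0 (3571 unadjusted by limma) on 4 arrays, 3746 without both replicates 1, and 0 to 1950. For lincomycin after red light the 6 became 18 with medians shifted, 1 after quantile normalization, 26 without the dimmest 30%, 0 (1884 unadjusted by limma) with the floor, 21 with trend and robust options, 1 with the block, 12 on 4 arrays with the block, 9 with the pairing crossed, 90 without both replicates 1, and 0 to 32. The difference between both lincomycin comparisons had 0 calls by limma (2359 unadjusted), and 0 to 609 without 1 array. Higher calls made up 45.7% for lincomycin in darkness, 67.7% with medians shifted and 60.6% after quantile normalization. They were 16.7%, 11.1% and 0% for lincomycin after red light, and 67.4%, 81.3% and 83.0% for red light without lincomycin.

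Of the 40 ribosome biogenesis genes, 2 were called higher on lincomycin in darkness. This number became 1 after quantile normalization, without the dimmest 30%, with the floor, and with trend and robust options. It became 0 with the replicate block (AT5G15550 at adjusted p = 0.0526 and AT3G03920 at 0.0573, limma, with 10 unadjusted) and on 4 arrays (11 unadjusted). For fits that left 1 array in a group, no count of these genes is given here. The labels give same-numbered arrays a replicate number and do not say whether they were handled together. The correlation of their deviations was 0.44 between dark and red and -0.33 between dark and red lincomycin. Whether they shared a batch was not tested. With 2 arrays in each group and signals near background for dim probe sets, small changes could not be resolved.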
